A study of Mus musculus with 7 samples.

Results

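The 40 genes described here encode proteins that find and mend broken DNA and that signal its presence, and they were taken by gene symbol from the 31531 genes of the deposited table. All 40 were found. They were measured in RNA from muscle fibers of 7 mouse fetuses at embryonic day 17.5 (E17.5), 4 WT and 3 with the genotype dyW/dyW (dyW), with 1 library per fetus. The dyW allele disrupts *Lama2*, which encodes the laminin-α2 chain of the muscle basement membrane, and dyW mice are a model of LAMA2-congenital muscular dystrophy. Fetuses came from crosses of heterozygous mice. Fibers were released from the epaxial muscles along the back with dispase and collagenase and kept on a strainer, so cells attached to the fibers could be carried along. The comparison asks whether genes for DNA repair differ between the genotypes in fetal muscle fibers.

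A double-strand break is mended by 1 of several routes. In end joining, the Ku proteins bind the ends, and DNA ligase IV with XRCC4 seals them. In homologous recombination, the MRE11-RAD50-NBN complex and nucleases trim the ends to single strands, BRCA2 and its partners prepare these strands for pairing, and an intact copy, usually the sister chromatid, serves as the template. The kinases ATM and ATR signal the damage to checkpoints. Recombination is used mainly in cells that replicate their DNA, whereas nuclei inside muscle fibers have left the cell cycle and are known to rely mostly on end joining.

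The libraries differed in ways that bear on every value below. Reads counted on genes numbered 470804 to 2220813 per WT library and 3663905 to 18297106 per dyW library. The deposited values are normalized counts, the reads on a gene divided by 1 size factor per library, and 1 read was worth between 2.05 and 5.33 normalized counts in WT and between 0.0974 and 0.488 in dyW. After this scaling, library totals ran from 2509936 to 5543240 normalized counts in WT and from 1399618 to 2314074 in dyW. Every dyW total thus lay below every WT total. At least 1 read fell on between 25530 and 29594 genes in each WT library, and on between 14209 and 19360 in each dyW library. Reads on 1269 odorant and vomeronasal receptor genes, which serve sensory neurons of the nose, had a median of 0.641 to 2.49 reads per kb of exon in WT. This receptor level was 0 in dyW1 and dyW2 and 1.09 in dyW3. The cDNA was amplified by PCR without molecular identifiers, so reads are not independent molecules and limits for low counts cover counting error only.

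The labels were checked against *Lama2* and against cell type markers. *Lama2* had 90.6, 111, 105 and 107 normalized counts in WT1 to WT4, 4.29 in dyW1 and 6.07 in dyW2, but 140 in the library labelled dyW3, the highest of all 7. The 10 myofiber markers summed to between 2607 and 68111 normalized counts in WT, to 7422 in dyW2 and to 4346 in the library labelled dyW3. In the library labelled dyW1 they summed to 68.9, and skeletal actin (*Acta1*) stood at 4.09 against between 1807 and 52989 in the other 6. The 8 cartilage markers summed to 444364 in WT1 and to between 19.7 and 11157 elsewhere, and the 8 erythroid markers summed to 96.0 in WT1 and 14.8 in dyW1 but to between 28845 and 291263 in the other 5. Fibroblast markers summed to between 4206 and 14917 in WT and to between 22301 and 33277 in dyW, so the groups did not overlap. The 8 myogenic progenitor markers summed to between 144 and 475 in WT and to between 39.95 and 838 in dyW. In bulk RNA, fewer cells of a type and less RNA per cell cannot be told apart, and the part that these cell mixtures play in the results was not tested.

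Promoter sequences were available for 31 of the 40 genes, in 37 windows of 300 bases that run from 250 bases before to 50 bases after a transcription start (RefSeq, GRCm38.p6). E2F transcription factors drive many genes of DNA replication and repair, so the windows were searched on both strands for TTTCCCGC and TTTGGCGC. Of the 37 windows 6 (16.2%) held a match, against 1.56% of all 32851 windows, and the 6 genes were *Bard1*, *Brca2*, *Chek2*, *Mdc1*, *Rad51c* and *Xrcc6*. Among them, *Brca2*, *Rad51c* and *Mdc1* were lower in dyW by the test given below, and *Bard1*, *Chek2* and *Xrcc6* did not pass. Their promoters are shown because these 3 genes share both the letters and the call. For *Lig4*, also called lower, a window is shown that holds CGCATGCG, the core of the NRF1 motif, present in 2 of the 37 windows (5.41%) and in 1.87% of all windows. *Rad51c* and *Lig4* each had a further window, at another start, that held no match to any motif searched and is not shown. Capitals mark each match to the motifs searched, including CCAAT in *Mdc1*, and the rest is in lower case, 5′ to 3′ on the strand of the gene.
*Brca2*, chr5:150522371-150522670, + strand: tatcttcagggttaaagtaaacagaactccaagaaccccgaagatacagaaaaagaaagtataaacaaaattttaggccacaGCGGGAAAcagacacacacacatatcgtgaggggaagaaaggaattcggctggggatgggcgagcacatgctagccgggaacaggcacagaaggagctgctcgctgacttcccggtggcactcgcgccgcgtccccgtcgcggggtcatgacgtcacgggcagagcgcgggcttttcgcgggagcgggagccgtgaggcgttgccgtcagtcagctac
*Rad51c*, chr11:87404905-87405204, − strand: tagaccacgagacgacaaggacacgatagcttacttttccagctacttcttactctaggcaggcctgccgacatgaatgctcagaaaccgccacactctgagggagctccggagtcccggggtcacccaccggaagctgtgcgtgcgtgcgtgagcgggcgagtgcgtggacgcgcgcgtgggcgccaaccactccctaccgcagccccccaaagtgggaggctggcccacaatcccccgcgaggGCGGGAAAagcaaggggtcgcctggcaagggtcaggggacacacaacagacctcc
*Mdc1*, chr17:35841248-35841547, + strand: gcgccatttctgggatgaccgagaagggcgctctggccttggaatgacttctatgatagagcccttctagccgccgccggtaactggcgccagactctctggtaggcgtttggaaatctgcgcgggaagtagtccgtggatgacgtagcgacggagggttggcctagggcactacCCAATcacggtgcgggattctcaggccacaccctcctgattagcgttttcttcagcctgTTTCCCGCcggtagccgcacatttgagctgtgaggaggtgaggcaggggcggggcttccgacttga
*Lig4*, chr8:9977631-9977930, − strand: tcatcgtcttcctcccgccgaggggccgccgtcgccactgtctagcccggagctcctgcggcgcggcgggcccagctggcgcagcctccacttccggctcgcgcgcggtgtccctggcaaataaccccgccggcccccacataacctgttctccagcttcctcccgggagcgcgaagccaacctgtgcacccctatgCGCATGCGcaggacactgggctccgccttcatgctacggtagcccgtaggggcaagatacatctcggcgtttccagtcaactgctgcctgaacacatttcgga

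In the windows shown, the E2F match began 168 bases before the start in *Brca2*, 16 before it in *Mdc1* and 5 before it in *Rad51c*, and the NRF1 match in *Lig4* began 53 before it. The CCAAT box, in either orientation, was in 18 of the 37 windows (48.6%) against 37.4% of all windows, and 6 copies lay in the window of *Xrcc3*. The motif TTTGAA, the core of the cell cycle element named CHR, was in 2 of the 37 (5.41%) against 17.9% of all windows. These matches describe the letters in the windows and were not linked to binding.

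Groups were compared with limma on log2(normalized count + 1), over the 25791 genes with a mean of at least 5 normalized counts. A gene was called when its Benjamini-Hochberg adjusted *P* was under 0.05 and its log2 fold change, dyW over WT, was over 1.5 in either direction. For genes with few counts, the added 1 makes such fold changes smaller than those of the counts themselves. All 40 genes passed the filter. Of them, 10 (25.0%) were lower in dyW: *Brca2*, *Rad51b*, *Rad51c*, *Xrcc3*, *Brip1*, *Mre11a*, *Exo1*, *Mdc1*, *Lig3* and *Lig4*. Of all genes tested, 29.6% were called lower, and 23.0% of those with a mean within the range of the 40, from 10.8 to 558 normalized counts. The share among the repair genes thus lay between these backgrounds. None of the 40 was called higher by limma, or by limma's voom on the recovered reads, against 1.0% and 1.85% of all genes tested. Voom called 1 of the 40 lower, *Lig4*, against 26.6% of all genes, and the other 9 calls, among them *Brca2* (adjusted *P* = 0.0877) and *Rad51c* (adjusted *P* = 0.15), were lost. By limma 14 of the 40 had an unadjusted *P* under 0.05, as had 11433 of the 25791 genes tested, and 1 of the 14, *Nbn*, was higher in dyW. When library totals were instead made equal, 2 of the 40 were called lower (*Rad51c* and *Lig4*) and 1 higher (*Nbn*), against 20.7% and 4.85% of all genes.

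The median log2 fold change of the 40 genes was −0.94, against −1.99 over all genes tested and −1.46 over genes in the same range of means. The value was negative for 30 genes and positive for 10. In 11 genes (27.5%) every WT library stood above every dyW library, namely the 10 called genes and *Rad54l*, against 31.5% of all genes tested. In 1 gene, *Nbn*, every dyW library stood above every WT library, a pattern found in 3.28% of all genes. The groups overlapped in the other 28. In an exact two-sided permutation test over the 35 ways to split the 7 libraries, the smallest *P* possible is 0.0571, which is the value for each of the 12 genes without overlap.

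**Figure D1:**
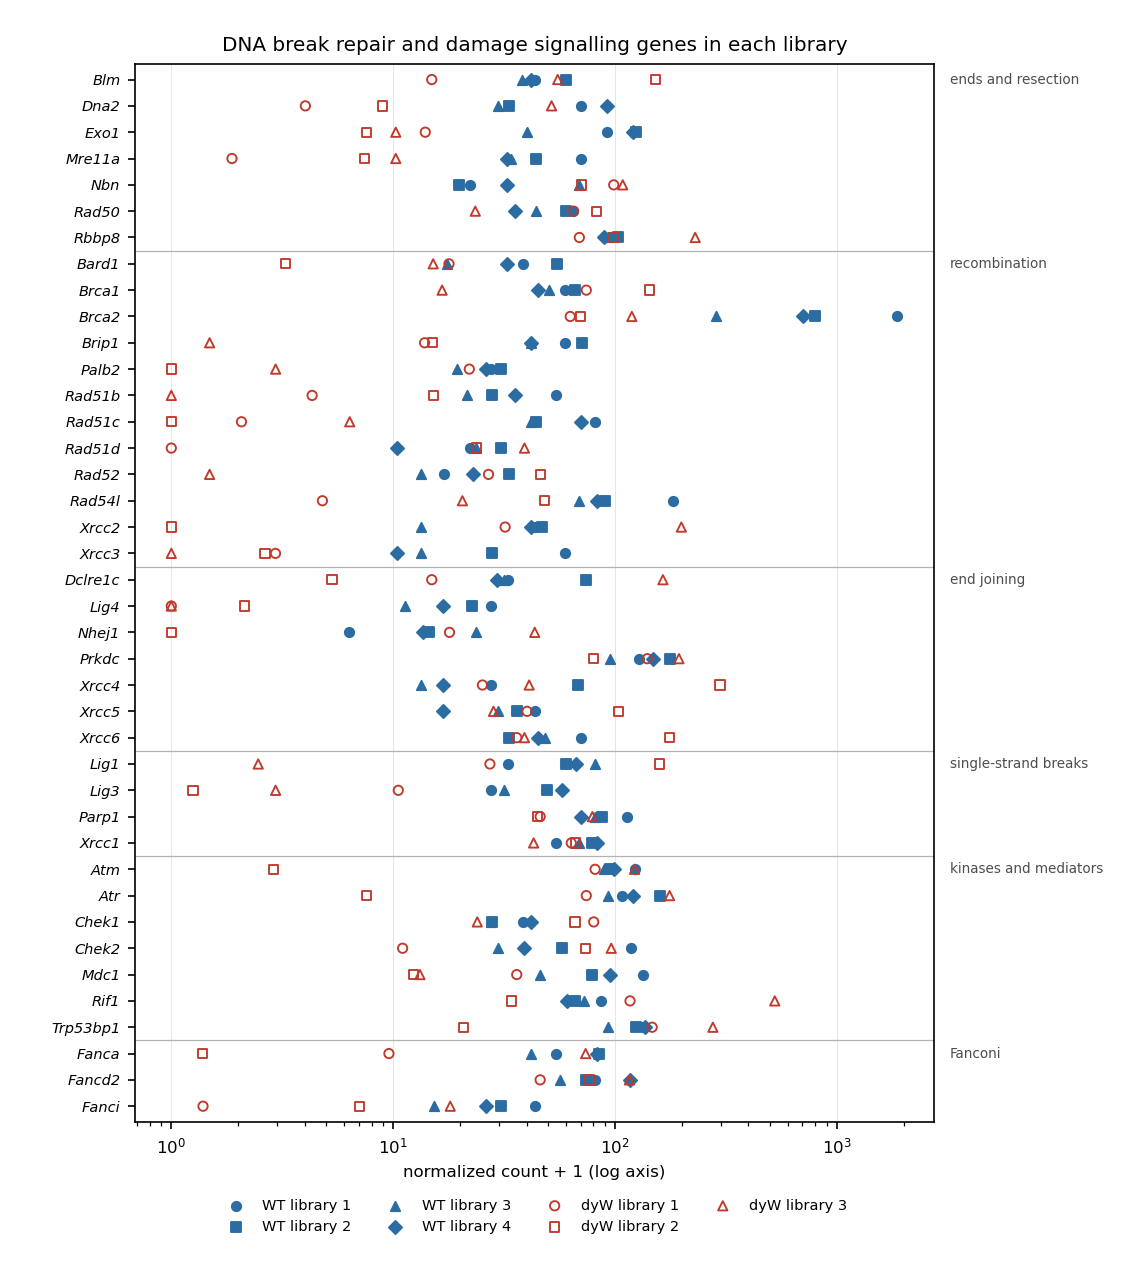
Normalized count + 1 (log axis) of each of the 40 genes in each library, with filled blue symbols for the 4 WT and open red symbols for the 3 dyW libraries, grouped by role. The dyW symbols spread more than the WT symbols in 36 genes, the exceptions being *Brca2*, *Exo1*, *Nbn* and *Xrcc3*, and all 4 WT symbols lie to the right of all 3 dyW symbols in 11 genes.

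The dyW libraries spread more than the WT libraries. The median over the 40 genes of the SD of log2(normalized count + 1) was 0.536 in WT and 1.64 in dyW, and the SD was larger in dyW in 36 genes. Over all genes in the same range of means these medians were 0.753 and 1.65. Of the 3 dyW libraries, the library labelled dyW3 was the highest in 20 genes and dyW2 the lowest in 17. Below all 4 WT libraries stood 24 genes in dyW1, 25 in dyW2 and 19 in the library labelled dyW3, and above all 4 stood 6, 10 and 10 genes.

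The WT values rest on few reads. A gene of the 40 had a median of 15.5 reads in a WT library, with a range from 1 to 352, and a median of 143 in a dyW library, with a highest value of 2346. All 40 genes had a read in each WT library, whereas 38, 36 and 37 had a read in dyW1, dyW2 and the library labelled dyW3. Relative to the reads a gene of its exon length would hold at the receptor level, the 4 WT libraries together had a median of 1.24 times that number, with a range from 0.496 to 9.09. The ratio was under 2 in 32 of the 40 (80.0%), a share of 76.3% over all genes tested, and in 7 of the 10 called genes. The other 3 called genes were *Brca2* at 9.09, *Mdc1* at 2.08 and *Exo1* at 2.0. The receptor level was then subtracted from each library, which took nothing from dyW1 and dyW2, where it was 0. Values that fell below 0 were set to 0. After this, limma called 0 of the 40 and 0 of 24889 genes in either direction (0.00%), with 10 and 4595 at an unadjusted *P* under 0.05. The log2 fold change was then −3.03 for *Brca2*, −3.20 for *Rad51c*, −2.19 for *Exo1* and −1.38 for *Mdc1*, and values for the other called genes are given below.

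**Figure D2:**
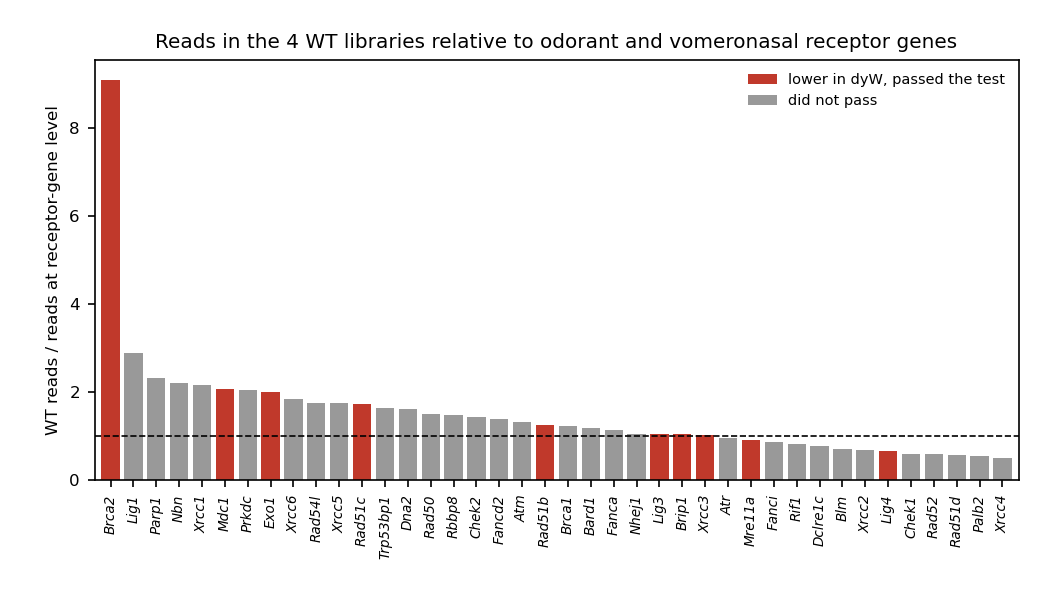
Reads of each gene in the 4 WT libraries together divided by the reads expected from its exon length at the level of the 1269 receptor genes of the nose, with red bars for genes lower in dyW by the test and a dashed line at 1. *Brca2* stands at 9.09 and the next gene, *Lig1*, at 2.89, while 13 genes lie under 1.

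Of the 7 genes for sensing and trimming broken ends, 2 were lower in dyW, *Mre11a* and *Exo1*. MRE11, encoded by *Mre11a* (chr9:14695512-14749335, GRCm39), is the nuclease of the MRE11-RAD50-NBN complex. *Mre11a* had 69.3, 43.1, 32.8 and 31.5 normalized counts in WT1 to WT4, and 0.877, 6.45 and 9.28 in dyW1 to dyW3. All 3 dyW libraries lay below the WT range, with a log2 fold change of −3.04 ± 0.804 (SE, adjusted *P* = 0.0189). The WT reads of *Mre11a* were 0.918 times the receptor level, and with that level subtracted the direction turned (log2 fold change 0.57, adjusted *P* = 0.847). The subtraction left no count in WT2 and WT4 and took nothing from dyW1 and dyW2. *Exo1* (chr1:175708143-175741055), an exonuclease that extends the trimmed ends, had 90.6, 124, 38.97 and 120 in WT and 13.0, 6.58 and 9.28 in dyW. Its log2 fold change was −3.07 ± 0.679 (SE, adjusted *P* = 0.00861), and the dyW libraries differed among themselves less than the WT libraries did.

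The genes of the partners of MRE11 did not pass. *Rad50*, the ATPase of the complex, ranged from 34.6 to 64.0 normalized counts in WT and from 22.5 to 81.3 in dyW. *Nbn*, which brings the complex to ATM, had 21.3, 18.9, 67.7 and 31.5 in WT and 97.7, 69.7 and 107 in dyW. The lowest dyW value of *Nbn*, 69.7, was just above the highest WT value, 67.7, and the gene did not pass the test (log2 fold change 1.53 ± 0.661, SE, adjusted *P* = 0.106). The WT values of *Nbn* came from between 4 and 33 reads. With library totals made equal its adjusted *P* was 0.0265, with a log2 fold change of 2.66. The other 3 genes of the group overlapped: *Dna2*, a nuclease and helicase, with 28.7 to 91.3 in WT and 3.02 to 50.8 in dyW, *Rbbp8*, encoding the MRE11 cofactor CtIP, with 88.1 to 102 and 68.1 to 229, and the helicase gene *Blm* with 36.9 to 59.3 and 13.9 to 151. *Dna2* was called lower when the library labelled dyW3 was left out.

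Of the 12 genes of BRCA proteins and the other core genes of recombination, 5 were lower in dyW. *Brca2* (chr5:150446057-150496080) encodes a tumour suppressor that acts on the single-stranded DNA of trimmed ends. It had 1877, 798, 283 and 702 normalized counts in WT and 61.9, 68.9 and 118 in dyW, and its log2 fold change was −3.20 ± 0.679 (SE, adjusted *P* = 0.00721). The WT values came from 138 to 352 reads and differed widely among themselves, yet all stood above the dyW values. Per kb of exon, the highest means over all 7 libraries were those of *Brca2*, at 34.0 normalized counts, *Nbn* at 16.3, *Lig1* at 13.4, *Xrcc6* at 12.7 and *Xrcc5* at 12.3. This order differed by group, since *Brca2* stood at 55.6 per kb in WT and 5.05 in dyW, and *Nbn* at 9.58 in WT and 25.2 in dyW. The exons of *Brca2* overlap those of 4 genes on the opposite strand, among them *N4bp2l1*. The strand setting of the counting is not given, so reads of both strands cannot be told apart, and exons of 26 of the 40 genes overlap another gene, including the called genes *Brca2*, *Mre11a*, *Exo1*, *Xrcc3*, *Brip1*, *Mdc1* and *Lig3*.

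*Rad51c* (chr11:87267471-87295780), which is needed for homologous recombination, had 80.0, 43.1, 41.0 and 69.2 normalized counts in WT and 1.07, 0 and 5.37 in dyW. Its log2 fold change was −4.59 ± 0.816 (SE, adjusted *P* = 0.0044). *Xrcc3* (chr12:111769626-111780327), whose protein binds that of *Rad51c*, had 58.6, 27.0, 12.3 and 9.44 in WT and 1.95, 1.64 and 0 in dyW. The WT values of *Xrcc3* came from 3 to 11 reads, and its log2 fold change was −3.47 ± 0.868 (SE, adjusted *P* = 0.0146), but −0.38 with the receptor level subtracted (adjusted *P* = 0.892) and −0.32 with quantile normalization (adjusted *P* = 0.934). *Rad51b* (chr12:79343212-79861464), a further recombination gene, had 53.3, 27.0, 20.5 and 34.6 in WT and 3.31, 14.2 and 0 in dyW, with a log2 fold change of −3.03 ± 0.980 (SE, adjusted *P* = 0.0445), or −0.47 with the receptor level subtracted (adjusted *P* = 0.879). The call of *Rad51b* was lost when any 1 library other than dyW2 was left out. *Rad51d* and *Xrcc2*, of the same route, overlapped between the groups, with 9.44 to 29.7 in WT and 0 to 38.1 in dyW for the first, and with 12.3 to 45.8 and 0 to 198 for the other.

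*Brip1* (chr11:85948957-86092592), the helicase that binds BRCA1, had 58.6, 70.1, 41.0 and 40.9 normalized counts in WT and 12.9, 14.0 and 0.488 in dyW (log2 fold change −2.95 ± 0.925, SE, adjusted *P* = 0.0393). The last value was 1 read, and with the receptor level subtracted the log2 fold change was 0.26 (adjusted *P* = 0.934). *Brca1* itself ranged from 44.1 to 64.7 in WT and from 15.6 to 142 in dyW, which enclosed the WT range. Its partner *Bard1*, with which BRCA1 forms a ubiquitin ligase, ranged from 16.4 to 53.9 in WT and from 2.28 to 16.9 in dyW, where only dyW1 exceeded the lowest WT library. *Palb2*, which links BRCA1 to BRCA2, ranged from 18.5 to 29.7 in WT and from 0 to 21.0 in dyW. It was called lower when dyW1 was left out.

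*Rad54l*, whose motor protein helps the trimmed strand to invade the template, had 181, 89.0, 67.7 and 81.8 normalized counts in WT and 3.80, 47.2 and 19.5 in dyW. The groups did not overlap, but the adjusted *P* of 0.0535 missed the threshold (log2 fold change −2.55 ± 0.865, SE), which it passed when dyW2 was left out. *Rad52* ranged from 12.3 to 32.4 in WT and from 0.488 to 45.2 in dyW.

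Among the 7 end joining genes, 1 was lower in dyW. *Lig4* (chr8:10019049-10027686), the ligase that seals the ends, had 26.7, 21.6, 10.3 and 15.7 normalized counts in WT, from 5 to 8 reads each, and 0, 1.14 and 0 in dyW, where dyW2 held 9 reads. Its log2 fold change was −3.85 ± 0.707 (SE, adjusted *P* = 0.00456). Its WT reads were 0.648 times the receptor level, and with that level subtracted the log2 fold change was −0.45 (adjusted *P* = 0.781). It was −0.17 with quantile normalization (limma, adjusted *P* = 0.959). With a pseudocount of 10 it was −1.43, short of the fold threshold, and the call was lost. A count of 0 allows up to 3 reads, or 0.292 normalized counts in dyW1 and 1.47 in the library labelled dyW3.

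*Xrcc4*, for the partner of DNA ligase IV, did not pass (log2 fold change 1.41, adjusted *P* = 0.309). It ranged from 12.3 to 67.4 normalized counts in WT and from 24.3 to 297 in dyW, with the highest value in dyW2. The Ku genes overlapped between the groups: *Xrcc5*, for Ku80, had 42.6, 35.1, 28.7 and 15.7 in WT and 39.2, 103 and 27.3 in dyW. *Xrcc6*, for Ku70, had 69.3, 32.4, 47.2 and 44.1 in WT and 35.1, 175 and 38.1 in dyW. In both Ku genes dyW2 stood above all other libraries and the remaining dyW libraries lay within the WT range. *Prkdc*, for the kinase that Ku recruits, ranged from 94.4 to 175 in WT and from 79.0 to 193 in dyW, the nuclease gene *Dclre1c* (Artemis) from 28.3 to 72.8 and from 4.30 to 164, and *Nhej1* (XLF) from 5.33 to 22.6 and from 0 to 42.5. *Dclre1c*, with its highest value in the library labelled dyW3, was called lower when that library was left out.

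Of the 4 genes for single-strand break repair and ligation, *Lig3* was lower in dyW. *Lig3* (chr11:82671934-82695100), a ligase of the nucleus and the mitochondria, had 26.7, 48.5, 30.8 and 56.6 normalized counts in WT and 9.55, 0.253 and 1.95 in dyW, where the last 2 values are 2 and 4 reads. Its log2 fold change was −3.55 ± 0.867 (SE, adjusted *P* = 0.0132), and −0.05 with the receptor level subtracted (adjusted *P* = 0.985). *Xrcc1*, the scaffold that binds DNA ligase III, ranged from 53.3 to 81.8 in WT and from 42.0 to 65.6 in dyW. *Lig1*, the ligase of DNA replication, had 32.0, 59.3, 80.0 and 66.1 in WT and 26.3, 158 and 1.47 in dyW, so both the highest and the lowest library were dyW. *Parp1*, the sensor of strand breaks, ranged from 69.2 to 112 in WT and from 43.8 to 78.1 in dyW.

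Of the 7 genes for damage kinases and their mediators, 1 passed. *Mdc1* (chr17:36152384-36170563), which binds the histone mark γH2AX at breaks, had 133, 78.2, 45.1 and 94.4 normalized counts in WT and 35.1, 11.4 and 12.2 in dyW (log2 fold change −2.19 ± 0.696, SE, adjusted *P* = 0.0411). Its call was lost without WT1, WT2, WT4, dyW2 or the library labelled dyW3. *Atm* and *Atr* were lowest in dyW2: *Atm* had 1.90 there and between 80.4 and 122 in the other dyW libraries, against 88.2 to 123 in WT. *Atr* had 6.58 in dyW2 and between 73.3 and 175 in the other dyW libraries, against 92.3 to 159 in WT. *Trp53bp1*, for 53BP1, and *Rif1*, its effector, were also lowest in dyW2 at 19.7 and 33.1 and highest of all libraries in the library labelled dyW3 at 275 and 524. The checkpoint kinases overlapped, with 26.7 to 40.9 in WT and 23.0 to 79.2 in dyW for *Chek1*, and with 28.7 to 117 and 10.04 to 95.2 for *Chek2*.

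None of the 3 Fanconi anaemia genes, which serve the repair of crosslinks between strands, passed. *Fancd2* ranged from 55.4 to 116 normalized counts in WT and from 45.0 to 115 in dyW. Its partner *Fanci* ranged from 14.4 to 42.6 in WT and from 0.390 to 17.1 in dyW, and *Fanca*, of the core complex, from 41.0 to 83.6 and from 0.379 to 72.8. For both, the library labelled dyW3 was the only dyW library within the WT range, and both were called lower when it was left out.

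**Figure D3:**
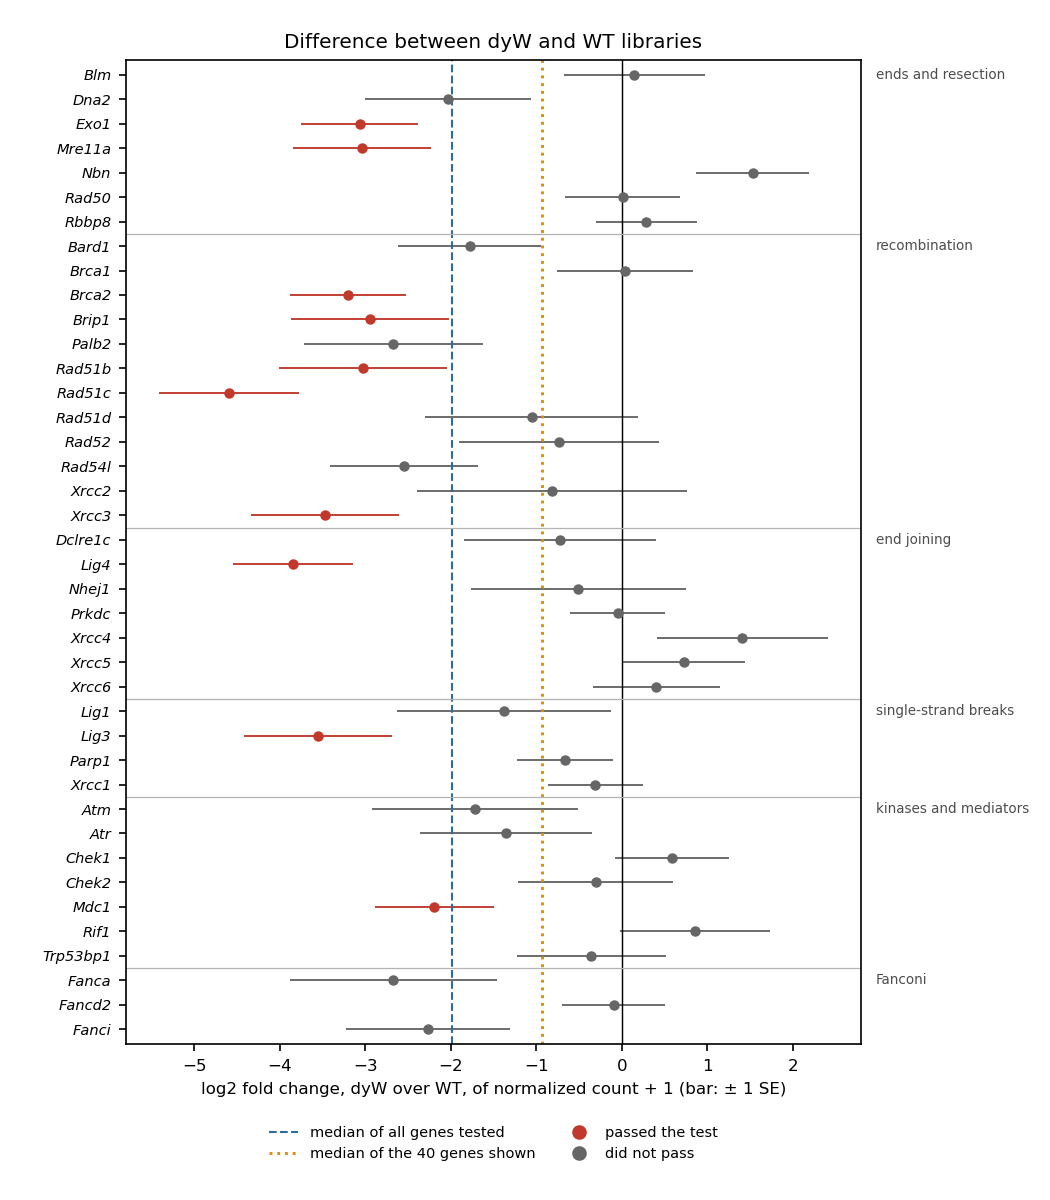
Log2 fold change, dyW over WT, of normalized count + 1 for each of the 40 genes, with bars of ± 1 SE from limma, red for the 10 genes that passed, and lines at the median of the 40 genes (−0.94) and of all genes tested (−1.99). *Mre11a* lies at −3.04 and *Lig4* at −3.85, while their partners *Nbn* (1.53) and *Xrcc4* (1.41) lie to the right of 0 and did not pass, and differences between genes were not tested.

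The calls depended on single libraries. *Brca2*, *Rad51c*, *Exo1* and *Lig4* were called lower whichever of the 7 libraries was left out, and they were the 4 with an adjusted *P* under 0.01, a threshold that 18.7% of all genes passed downward. *Xrcc3* was lost only without WT2, and *Lig3* without WT2 or WT4. *Mre11a* was lost without WT1, WT2 or WT4, and *Brip1* without any 1 of the WT libraries. Without both WT1 and dyW1, the libraries with the lowest myofiber markers, 8 of the 40 were called lower, 7 of them among the 10, against 30.8% of all genes. Without the library labelled dyW3, 12 were called lower, 8 of them among the 10, against 41.4% of all genes.

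**Figure D4:**
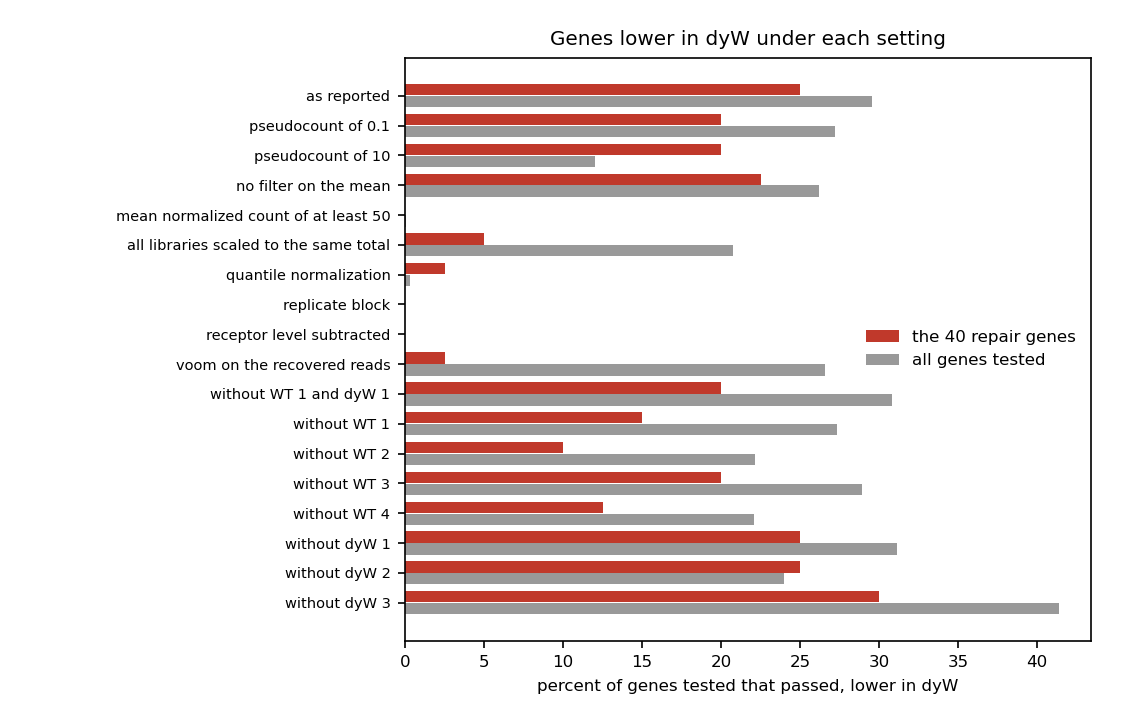
Percent of genes tested that were called lower in dyW under each setting, in red for the 40 repair genes (22 with a mean of at least 50 normalized counts) and in gray for all genes tested. The red bar falls from 25.0% as reported to 5.0% with library totals made equal and to 0 with the receptor level subtracted, and it is longer than the gray bar at a pseudocount of 10, with quantile normalization and without dyW2.

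Other genes of DNA repair were counted from lists for each pathway, without the 40. Of 195 listed, 192 were in the table and 190 were tested, and 19 (10%) were lower and 4 (2.11%) higher in dyW, with a median log2 fold change of −0.61, against 29.6% lower, 1.0% higher and a median of −1.99 over all genes tested. With library totals made equal, 5 were lower and 27 higher, against 20.7% and 4.85% of all genes. The count of 19 became 28 without dyW1, 12 without WT1, 7 without WT2 and 6 without WT4, and the count of 4 became 2 without WT2 or WT4.

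Of 48 further genes of homologous recombination, 4 were lower and 1 higher (1 and 2 by voom). *Rmi2*, of the complex that dissolves recombination intermediates with BLM, had between 55.4 and 123 normalized counts in WT and a total of 2 reads in the dyW libraries. *Hrob* averaged 22.8 ± 16.5 (SD) over the 4 WT and 1.44 ± 2.38 (SD) over the 3 dyW libraries, the nuclease gene *Gen1* 62.8 ± 23.3 and 11.1 ± 12.8, and the ubiquitin ligase gene *Rnf8*, which acts after MDC1, 127 ± 72.3 and 17.8 ± 11.8. Of 17 further Fanconi genes, 2 were lower (1 by voom): the nuclease gene *Fan1*, which had between 12.3 and 67.4 in WT and no read in dyW, and *Fancg*, with 35.5 ± 10.2 in WT and 6.41 ± 10.6 in dyW. The WT reads of *Fan1* were 1.37 times the receptor level, and with that level subtracted its log2 fold change was −3.33 (adjusted *P* = 0.271). Of 10 further end joining genes 1 was lower (also 1 by voom), *Cyren*, a regulator of end joining, with 18.4 ± 7.27 in WT and 1.01 ± 1.75 in dyW.

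Of 28 genes for the excision of damaged bases, 5 were lower and 0 higher by limma (3 and 0 by voom), with 7 at an unadjusted *P* under 0.05. The glycosylase gene *Neil2* had between 6.15 and 80.0 normalized counts in WT and no read in dyW. Its WT reads were 1.09 times the receptor level, and with that level subtracted the log2 fold change was −1.91 (adjusted *P* = 0.43). *Nthl1*, *Neil1* and *Ung* encode glycosylases too, and *Ung*, which removes uracil, averaged 71.5 ± 23.6 (SD) over the 4 WT and 4.34 ± 2.26 (SD) over the 3 dyW libraries. Of 22 genes of nucleotide excision repair 3 were lower (0 by voom), *Gtf2h3* and *Gtf2h4* of the TFIIH complex and *Ercc8* of transcription-coupled repair. Of 20 genes of mismatch repair and translesion synthesis 2 were lower (0 lower and 1 higher by voom), the polymerase genes *Polh*, with 78.7 ± 38.4 in WT and 5.73 ± 6.33 in dyW, and *Poln*. Of 22 further genes of damage kinase signalling 2 were lower (1 by voom), *Rad9b* and *Tti2*.

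Another list held genes of cohesin, SMC5/6 and related complexes, including the condensin genes *Smc2* and *Smc4*. Cohesin holds sister chromatids together, and cohesin and SMC5/6 serve recombination. Of 23 tested, 0 were lower and 3 were higher by limma (0 and 9 by voom). The higher genes were *Rad21*, with a mean of 55.1 ± 22.6 normalized counts over the 4 WT libraries (SD) and 264 ± 51.5 over the 3 dyW libraries (SD), *Pds5b*, at 79.4 ± 19.9 and 419 ± 257, and *Stag2*, at 124 ± 15.2 and 413 ± 165. Every dyW library stood above every WT library in 11 of the 24 listed genes in the table, tested or not, a pattern of 3.28% of all genes tested. Of the 23 tested, 8 had an unadjusted *P* under 0.05, as had 11433 of the 25791 genes tested. Of all genes, 1.0% were higher by limma and 1.85% by voom. The WT reads of the list had a median of 1.82 times the receptor level.

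Markers of replicating cells were also counted, since recombination genes are used in them. Of 30 such genes 1 was lower and 0 were higher by limma (0 and 2 by voom), with 3 at an unadjusted *P* under 0.05. The lower gene was *E2f1*, itself an E2F factor, with a mean of 47.7 ± 21.7 normalized counts over the 4 WT libraries (SD) and 5.31 ± 4.44 over the 3 dyW libraries (SD). The 30 genes summed to between 1850 and 3036 in WT and to between 1696 and 6711 in dyW. Of 25 target genes of p53, which ATM activates, 3 were lower (*Tnfrsf10b*, *Zfp365* and *Dcxr*) and 1 was higher (1 and 1 by voom), *Plk2*, at 175 ± 93.9 in WT and 542 ± 134 in dyW.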

How the data were processed

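RNA from muscle fibers of 4 WT and 3 dyW fetuses was sequenced by the SMART-seq2 protocol with Nextera libraries. After trimming with Cutadapt and alignment to GRCm39 with RNA STAR, the authors counted uniquely mapped reads per gene with FeatureCounts and deposited normalized counts, which are counts divided by 1 DESeq2 size factor per library. Versions, strand setting and annotation release are not given in the sources used here. A second table of fold changes and *P*-values from the authors' own comparison was not used.

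The values of a library are multiples of 1 step, and division by that step gave back the reads, of which 100% were whole within 0.1 read. Exon lengths came from GENCODE mouse release 39, which held 99.2% of the gene identifiers. Genes with a mean of at least 5 were compared on log2(normalized count + 1) with limma 3.58.1 (lmFit, eBayes with trend, Benjamini-Hochberg adjustment, no covariate) in R 4.3.3. This step was tested on simulated counts with the same dispersion in both groups. The dyW libraries spread more than the WT libraries, so that simulation does not cover the spread seen here. Python 3.11.15 (with pandas 2.3.3, numpy 2.4.6, scipy 1.17.1 and, for figures, matplotlib 3.10.9) served for exact permutation tests and for lists. The *P* level and fold threshold follow those the study used beside a list of repair genes.

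The 40 genes, the pathway and marker lists, the motifs and the tests were chosen with earlier results of these data known. Values in every library are given for called genes, genes whose groups do not overlap and the 5 with the highest mean per kb. From each pathway list at most 4 called genes with the largest fold change are named, which leaves out *Bod1l*, the higher recombination gene, and *Adprs*, a lower base excision gene. Alternatives were other pseudocounts, filters and scalings, a replicate block, subtraction of the receptor level and libraries left out. Voom on the recovered reads and leaving out WT1 with dyW1 were chosen after seeing the data. The result of 1 further marker list is not reported here.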

Additional observations from a re-analysis of the deposited data

Results flagged for a closer look

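Among the 40 genes, 2 had 1 WT library far from the other 3. *Xrcc2* stood at 12.3 normalized counts in WT3, low against the other WT libraries, with a gap to the nearest of 0.853 of the range of the group. *Dclre1c* stood at 72.8 in WT2, high against the other WT libraries, with a gap of 0.918 of the range. Chance flags about 1 in 20 groups of 4 by this measure, and 40 were examined. Neither gene was called.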

How the results depend on the processing

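The calls rest on the scaling, the treatment of low counts and single libraries. Of the 40 genes, 10 were called lower, and this count was 8 with a pseudocount of 0.1 or 10 and 9 with no filter. It was 0 of 22 tested at a mean of at least 50, where fewer genes were tested (0.0491% of 6111 genes called, and 4 of the 22 at an unadjusted *P* under 0.05). It was 2 with library totals made equal, 1 with quantile normalization (*Brca2*; 0.318% of all genes), 1 with voom (*Lig4*; 26.6% of all genes), 0 with the receptor level subtracted and 4 at an adjusted *P* under 0.01, and the cause of these losses was not tested. Leaving out 1 library gave 4 to 12, with 4 without WT2, 5 without WT4 and 6 without WT1. Genes called higher were 0 except 1 with equal library totals, and 0 with any 1 library left out. The block for replicate number called 0 of the 40 and 0.00775% of all genes lower, with 10 of the 40 and 8843 of all 25791 genes at an unadjusted *P* under 0.05, and 0 repair genes outside the 40 either way. Same-numbered libraries had deviations correlated at 0.147, −0.049 and −0.088, so the numbers did not pair the libraries.

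The median log2 fold change of −0.94 became −1.56 and −0.44 with pseudocounts of 0.1 and 10, −0.31 at a mean of at least 50, −0.035 with equal totals, −0.30 with quantile normalization, 1.23 with the receptor level subtracted and −0.68 to −1.91 with 1 library left out, the last without dyW3. The median of all genes, −1.99, moved to −3.26 and −0.80 with pseudocounts of 0.1 and 10, 0.20 at a mean of at least 50, −1.24 with equal totals, 0.06 with quantile normalization and 0.39 with the receptor level subtracted, so the median of the 40 was below that of all genes at a mean of at least 50 and with quantile normalization. Repair genes outside the 40 called lower, 19, became 12 with a pseudocount of 0.1, 0 at a mean of at least 50, with quantile normalization and with the receptor level subtracted, 5 with equal totals or an adjusted *P* under 0.01, 7 with voom and 6 to 28 with 1 library left out. Those called higher, 4, became 2 with a pseudocount of 10 or without WT1 and dyW1, 0 at a mean of at least 50, with quantile normalization, the receptor level subtracted or an adjusted *P* under 0.01, 27 with equal totals, 12 with voom and 2 to 5 with 1 library left out. Among the called genes named, the log2 fold change turned positive with the receptor level subtracted for *Mre11a* (0.57, adjusted *P* = 0.847), *Brip1* (0.26, adjusted *P* = 0.934), *Gen1* (1.22), *Cyren* (0.67) and *Tti2* (0.43), and with quantile normalization for *Dcxr* (0.39), and genes that were not called turned sign as well.

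Count models on the recovered reads, planned as edgeR and DESeq2 fits, were not run, because such models were kept for tables whose unit an independent check reads as counts, and that check could not read the decimal commas of this table. With 3 dyW libraries of which 1 has *Lama2* at the WT level and another lacks myofiber markers, and with few reads in WT, differences within the spread of the dyW libraries were not detectable at this depth.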

Other observations

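Of the marker lists, 8 gave these counts, and the genes called were named after their values were seen. Of all genes tested, 29.6% were lower and 1.0% higher by limma, and 26.6% and 1.85% by voom. Of 8 fibroblast markers 3 were higher in dyW (4 by voom), *Col1a2*, *Pdgfra* and *Fap*. *Pdgfra* had a mean of 83.2 ± 37.3 normalized counts (SD) over the 4 WT and 305 ± 29.5 (SD) over the 3 dyW libraries, and *Fap* 91.1 ± 57.7 and 518 ± 154. Of 10 myofiber markers 1 was lower (0 by voom), *Ttn*, with 420 ± 166 and 80.1 ± 74.6, and 1 was lower of 7 erythroid markers (*Slc4a1*, 0 by voom) and of 8 cartilage markers (*Ucma*, also 1 by voom). By limma, 3 of the 10 myofiber, 1 of the 7 erythroid and 6 of the 8 cartilage markers had an unadjusted *P* under 0.05. The median log2 fold change of the cartilage markers was −4.72, against −1.99 over all genes tested. Of 4 epidermal markers 3 were lower (2 by voom), *Krt1*, *Trp63* and *Dsp*. No endothelial, immune or myogenic progenitor marker was called by limma or voom, with 2, 1 and 0 of 8 at an unadjusted *P* under 0.05.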
